A study of Mus musculus with 8 samples.

Results

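The 26S proteasome genes were taken as all protein-coding genes whose symbol starts with Psm, a letter from a to g and a number. The rule found 50 genes among 21900 protein-coding genes and 55665 annotated genes in all. They comprised 7 alpha and 7 constitutive beta genes of the 20S core, the 3 immunoproteasome genes, 2 tissue-restricted core genes, 6 ATPase and 11 non-ATPase genes of the 19S cap, 4 PA28 activator genes, the PA200 gene Psme4, the inhibitor gene Psmf1, and 4 and 3 genes for assembly chaperones of the core and the cap. The remaining match, Psmc3ip, encodes a recombination factor and was left out of these classes. All values are messenger RNA levels, and no protein or protease activity was measured.

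The libraries came from mouse natural regulatory T cells (nTreg), a CD4 T cell type defined by the transcription factor Foxp3. CD4+GFP+ cells were sorted from spleen and lymph nodes of mice with the genotype RosaCas9/+ Foxp3gfp and cultured, so every group carried Cas9 and the reporter allele. Cells received the control guide RNA sgNC or the Foxp3 guide sgFoxp3, and were then either given the mock treatment (DPBS, 0 h) or stimulated through the T cell receptor (TCR) with anti-CD3 and anti-CD28 antibodies for 3 h. The 4 groups, control guide at 0 h and 3 h and Foxp3 guide at 0 h and 3 h, held 2 libraries each. The labels give neither the age of the mice nor whether the 2 libraries of a group came from separate mice or cultures, so p-values measure the spread between libraries, which may be technical. They also do not say what share of the cells was edited or whether edited cells were sorted again.

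The proteasome degrades ubiquitin-tagged proteins. Its 20S core holds the proteolytic sites on the beta subunits encoded by Psmb5, Psmb6 and Psmb7, and the 19S cap recognises, unfolds and feeds in the substrate. In lymphocytes, and in other cells exposed to interferon, these catalytic subunits can be replaced by the immunoproteasome subunits from Psmb8, Psmb9 and Psmb10, which change the peptides cut for presentation on MHC class I. PA28 is an alternative cap: Psme1 and Psme2 encode its interferon-inducible cytoplasmic form and Psme3 its nuclear form.

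RefSeq promoter windows of 4 catalytic genes are shown first because they belong to the genes that moved apart in these cells. Each window runs from 250 bases before to 50 bases after the RefSeq start site (GRCm38.p6), 5′ to 3′ on the gene's strand. Psmb5 lies on the minus strand of chromosome 14 (window chr14:54617946-54618245) and Psmb6 on the plus strand of chromosome 11 (chr11:70525107-70525406). Psmb9 (minus strand, chr17:34187281-34187580) and Psmb8 (plus strand, chr17:34197945-34198244) lie close together on chromosome 17, with the peptide transporter gene Tap1 between them. Capitals mark a match to TGACNNNGC, the core of the antioxidant response element that NRF1 and NRF2 can bind.
Psmb5: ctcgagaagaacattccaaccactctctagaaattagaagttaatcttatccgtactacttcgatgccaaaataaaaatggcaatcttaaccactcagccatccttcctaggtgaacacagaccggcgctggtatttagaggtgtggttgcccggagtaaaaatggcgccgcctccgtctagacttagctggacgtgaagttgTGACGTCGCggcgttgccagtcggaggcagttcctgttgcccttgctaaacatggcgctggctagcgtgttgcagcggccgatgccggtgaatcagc
Psmb6: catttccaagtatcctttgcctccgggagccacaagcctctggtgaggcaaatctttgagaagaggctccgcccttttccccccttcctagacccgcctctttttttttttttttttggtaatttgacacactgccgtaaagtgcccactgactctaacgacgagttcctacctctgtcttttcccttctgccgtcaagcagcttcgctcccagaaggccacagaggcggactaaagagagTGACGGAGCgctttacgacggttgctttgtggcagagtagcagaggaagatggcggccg
Psmb8: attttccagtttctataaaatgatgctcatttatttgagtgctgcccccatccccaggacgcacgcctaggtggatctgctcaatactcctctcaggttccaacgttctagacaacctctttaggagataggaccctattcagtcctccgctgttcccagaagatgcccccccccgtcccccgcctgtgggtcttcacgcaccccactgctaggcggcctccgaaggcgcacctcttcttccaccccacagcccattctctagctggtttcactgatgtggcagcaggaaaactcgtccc
Psmb9: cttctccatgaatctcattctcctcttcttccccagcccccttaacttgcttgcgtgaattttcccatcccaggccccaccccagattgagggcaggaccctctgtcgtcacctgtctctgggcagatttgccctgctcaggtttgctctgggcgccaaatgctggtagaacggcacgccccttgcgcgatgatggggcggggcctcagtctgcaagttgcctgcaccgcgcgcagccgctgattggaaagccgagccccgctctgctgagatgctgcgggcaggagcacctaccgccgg

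RefSeq windows were matched for 42 of the 50 genes, with 45 windows among them. The constitutive catalytic gene Psmb7 had no window, so the motifs were not searched there. On both strands, TGACNNNGC was found in 6 of the 45 (13.3%: Psmb5, Psmb6, Psmc6, Psmd12, Psmd9 and Psme4) and in 12.4% of all 32851 windows. The match began at position -47 from the start site in Psmb5 and at -9 in Psmb6. The interferon response core was found in 5 member windows (11.1%: Psmb3, Psmd4, Psmd9, Psme1 and Psmg4) against 3.44% of all windows. The kappaB core was found in 6 (13.3%) against 8.46%. None of the 3 motifs was in the windows of Psmb8, Psmb9 or Psmb10, which says only that these letters are not in those 300 bases. In GENCODE M21 the genes Psmb8 (chr17:34197721-34201454) and Psmb9 (chr17:34181987-34187764) begin upstream of their windows. Bases before those annotated starts were not in the windows. The windows of Psmb9 and Tap1 overlap by 275 bases on opposite strands, with start sites 226 bases apart.

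Library totals ran from 38729009 to 94807362 expected counts, and 48 of the 50 genes had enough counts to be tested, among 16642 genes tested in all. Psma8, the germ cell form of an alpha subunit, had 0 to 3 counts per library, and Psmb11, the catalytic subunit of the thymic cortex, had 0 to 1. In 14 member genes the counts were partly fractional, because RSEM shares reads between similar sequences. Psme2b, an intronless near-copy of Psme2, is uncertain for this reason. Psme2 had fractional counts too, and its values carry the same limit. The targeted gene followed the labels: Foxp3 stood at 486 and 501 TPM (RSEM's transcript abundance, normalised for gene length and library total) in the control-guide libraries at 0 h against 44.0 and 44.4 with the Foxp3 guide, and at 337 and 330 against 30.7 and 27.9 at 3 h. T cell markers summed to between 1023 and 1298 TPM in every library, myeloid and dendritic markers, whose cells also carry immunoproteasomes, to at most 4.93 TPM with Lyz2 at or under 0.19, and stromal markers to at most 0.15. The B cell list, nearly all of it Ighm, summed to 1153 to 1162 TPM with the control guide at 0 h and 86.0 to 87.0 at 3 h, and to 265 to 270 with the Foxp3 guide at 0 h and 24.7 to 24.8 at 3 h, while Ms4a1 was at or under 0.03 in all libraries. Hba-a1, which carries the erythroid list, stood at 17.5 to 30.4 TPM with the control guide and 173 to 197 with the Foxp3 guide. Foxp3-guide libraries were also deeper, at 55865290 to 94807362 counts against 38729009 to 48626432. The part of depth and of Hba-a1 in the guide differences was not tested. In these bulk samples fewer cells of a type and less RNA per cell cannot be told apart.

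Before stimulation the immunoproteasome genes together made up most of the catalytic message with either guide, and after it they made up the smaller part. The majority rested on Psmb8. In unstimulated cells Psmb9 was below Psmb6 with either guide, and Psmb10 was below Psmb7 with the Foxp3 guide. Psmb8, which replaces Psmb5, had 591 and 598 TPM in unstimulated control-guide cells, and 339 and 337 once stimulated. In Foxp3-guide cells its TPM was 436 and 422 unstimulated, and 196 and 207 stimulated. The 4 groups did not overlap, with the control guide at 0 h highest and the Foxp3 guide at 3 h lowest. The share of all genes without overlap between groups was not computed, here and below. Psmb10, which replaces Psmb7, showed the same order of the extremes: 138 and 139 TPM, then 81.5 and 86.8 with the control guide, and 100 and 94.2, then 57.7 and 54.5 with the Foxp3 guide. Psmb9, which replaces Psmb6, had 170 TPM in both unstimulated control libraries and 139 and 145 in the stimulated ones, against 142 and 145, then 80.2 and 82.9 with the Foxp3 guide. The unstimulated control libraries were highest and the stimulated Foxp3-guide libraries lowest, and the other two groups overlapped. The sum of the B cell list, nearly all of it Ighm, put the 4 groups in the same order as Psmb8 did. Cd79a, a part of the B cell receptor, was at 1.0 TPM or less in every library. The part of the B cell list in the immunoproteasome values was not tested.

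The constitutive catalytic genes moved the other way with stimulation. Psmb5 went from 158 and 157 TPM to 214 and 230 in control-guide cells, and from 156 and 146 to 202 and 212 in Foxp3-guide cells. Psmb6 rose from 215 and 208 TPM to 318 and 335 with the control guide and from 221 and 211 to 284 and 302 with the Foxp3 guide. Psmb7 rose from 101 and 106 TPM to 216 and 220, and from 118 and 122 to 233 and 236. For all 3 genes the stimulated libraries lay above the unstimulated ones with either guide. The share of all genes that did so was not computed.

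**Figure D1:**
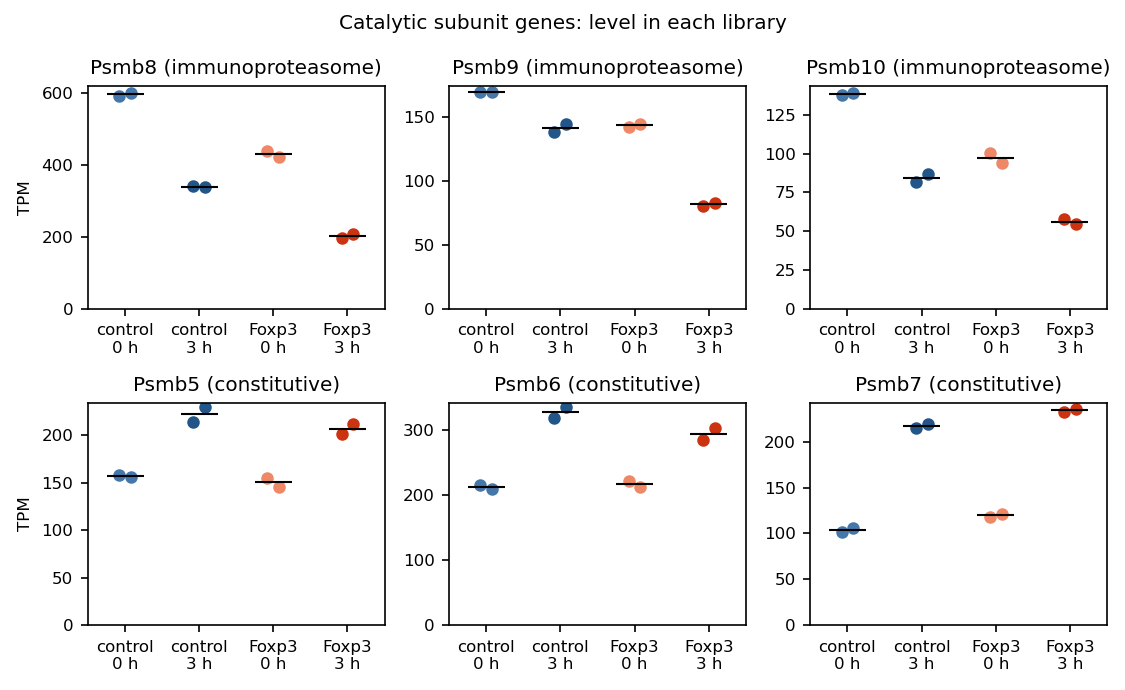
TPM (vertical axis, starting at 0) of the 3 immunoproteasome genes (top) and the constitutive genes they replace (bottom) in the 4 groups; each point is a library, and each line is the mean of 2. Psmb8 fell from 591 and 598 with the control guide at 0 h to 196 and 207 with the Foxp3 guide at 3 h, while Psmb7 was higher in all stimulated libraries than in all unstimulated ones.

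Set against the subunit it replaces, each immunoproteasome gene fell with stimulation and was lower with the Foxp3 guide at both times. A ratio of 2 genes within a library does not depend on scaling between libraries. The TPM ratio of Psmb8 to Psmb5 was 3.74 and 3.82 with the control guide at 0 h, 1.58 and 1.46 at 3 h, 2.81 and 2.90 with the Foxp3 guide at 0 h, and 0.973 and 0.977 at 3 h. The ratio of Psmb9 to Psmb6 was 0.787 and 0.816, then 0.436 and 0.432, against 0.643 and 0.684, then 0.282 and 0.274. The ratio of Psmb10 to Psmb7 was 1.36 and 1.31, then 0.378 and 0.396, against 0.852 and 0.775, then 0.247 and 0.231. For each of the 3 pairs the groups of every comparison did not overlap.

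Averaged over the 3 pairs, the log2 ratio differed by -1.33 with stimulation under the control guide and by -1.52 under the Foxp3 guide. Between guides it differed by -0.47 at 0 h and by -0.66 at 3 h. The SD between the 2 libraries of a group was at most 0.0315 on this scale. The exact two-sided permutation test gave p = 0.333 for each comparison, which is the smallest p that 2 against 2 libraries allow. Together the 3 immunoproteasome genes made up 65.4% and 65.9% of the TPM of the 6 catalytic genes in unstimulated control-guide cells, then 42.8% and 42.0% after stimulation. In Foxp3-guide cells they made up 57.9% and 58.0%, then 31.7% and 31.5%.

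**Figure D2:**
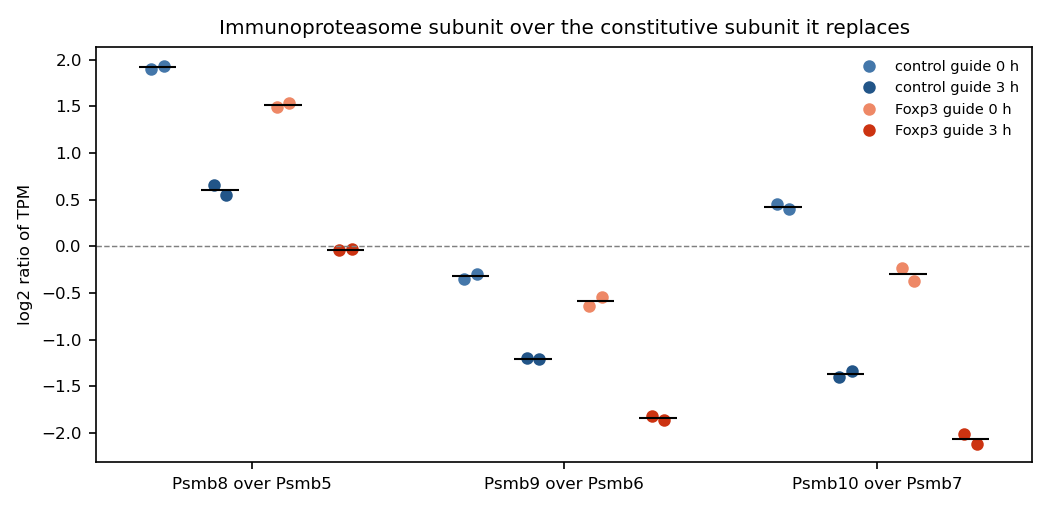
Log2 ratio of TPM (vertical axis) for each immunoproteasome gene over its constitutive counterpart, with each point a library and each line the mean of 2; the dashed line marks equal levels. In all 3 pairs the Foxp3 guide at 3 h is lowest, with Psmb8 over Psmb5 at 0.973 and 0.977 as a linear ratio.

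TCR stimulation with the control guide raised nearly every gene of the core, the cap and PA28, and lowered Psmb8 and Psmb10. In edgeR's quasi-likelihood fit, with p adjusted by Benjamini-Hochberg over all genes tested and a call at an adjusted p below 0.05, 43 of the 48 genes rose, 3 fell and 2 were not called. Over all genes tested, 81.8% were called, 40.9% as higher and 40.9% as lower. The median log2 change was 1.0 in the members and -0.01 over all genes. On the scale of log2(TPM + 1), 37 members rose and 7 fell, with a median of 0.63 in the members and -0.20 over all genes. Shares of all genes called were computed for the edgeR fit with TMM scaling only, here and below. Log2 changes below are of TMM-scaled counts, with the SE of a fit to 8 libraries.

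All 35 genes of the constitutive core, the cap and PA28 rose with the control guide, where 40.9% of all genes were called higher. Of the 35, 20 rose at least 2-fold, but the share of all genes that did so was not computed. The lowest of them, with log2 changes under 0.5, were Psmc3, Psmb1, Psmd13 and Psme2b. Psmb1, a core beta subunit with no active site, was higher by 0.11 ± 0.039 (SE) in scaled counts, yet its TPM was lower after stimulation, at 121 and 125 against 147 and 148. Psme2b had 136 and 129 TPM after stimulation against 135 and 138 before. The class medians were 1.27 for the 7 alpha genes, 0.80 for the 4 beta genes that are not catalytic, 1.02 for the constitutive catalytic genes, 0.94 for the cap's ATPases and 1.09 for its other subunits. Psmb7 rose by 1.45 ± 0.042, Psmb6 by 1.02 ± 0.050 and Psmb5 by 0.88 ± 0.052. Psmd12, a scaffold subunit of the cap's lid, rose by 1.73 ± 0.041.

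PA28 held the largest rise among the members. Psme3, the nuclear activator, went from 74.9 and 77.1 TPM to 340 and 318 in control-guide cells. In Foxp3-guide cells it went from 66.6 and 67.5 TPM to 383 and 359. The stimulated libraries lay far above the unstimulated ones with both guides, and its log2 change with the control guide was 2.39 ± 0.042 (adjusted p = 8.18e-25). Psme2 went from 498 and 477 TPM to 1122 and 1094, and from 370 and 337 to 889 and 981 with the Foxp3 guide. Psme1 went from 396 in both control libraries to 640 and 671, and from 280 and 269 to 490 and 506. Psme1 and Psme2 lie near each other on chromosome 14 of GRCm38 (55578123 to 55581529 and 55587441 to 55591113), and with the control guide they rose by 1.07 ± 0.044 and 1.65 ± 0.047.

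Chaperones that assemble the core rose as well. All 4 were called higher with either guide, as were 40.9% (control) and 40.8% (Foxp3) of all genes. Their median log2 change was 1.53 (control) and 1.43 (Foxp3). Psmg1 went from 20.02 and 20.26 TPM to 53.6 and 54.2 with the control guide, a log2 change of 1.83 ± 0.061. The assembly chaperones of the cap moved less: Psmd5 and Psmd9 rose, and Psmd10 had a log2 change of 0.08 ± 0.060 that was not called. The inhibitor gene Psmf1 rose by 0.30 ± 0.047 in scaled counts, with TPM values of 38.6 and 38.8 before and 36.0 and 34.3 after. Psme4, the nuclear activator PA200, fell by 0.15 with an SE of 0.041.

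The immunoproteasome genes did not take part in that rise. With the control guide Psmb8 fell by 0.40 (SE 0.041, adjusted p = 2.72e-09) and Psmb10 by 0.35 (SE 0.055, adjusted p = 6.27e-06). Psmb9 had a log2 change of 0.10 ± 0.043 at an adjusted p of 0.0423. That call was lost with RLE scaling (adjusted p = 0.0777), with DESeq2 (0.144) and on log2(TPM + 1) with TMM factors (0.174). It was also lost without the gene filter (0.0772), with at least 1 CPM in all libraries (0.877) and with only the 4 libraries compared (0.0619). Leaving out any of 6 of the 8 libraries lost it too, with log2 changes of 0.04 to 0.11. These were replicates 1 and 2 of the control guide at 0 h, its replicate 2 at 3 h, replicates 1 and 2 of the Foxp3 guide at 0 h, and its replicate 2 at 3 h. Its direction turned with upper-quartile scaling, to -0.14, and on log2(TPM + 1), to -0.26.

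With the Foxp3 guide the same stimulation gave 40 higher genes, 3 lower and 5 not called of 48, against 85.4% called over all genes tested, 40.8% higher and 44.5% lower. The median was 0.88 in the members and -0.07 over all genes. On log2(TPM + 1), 35 members rose and 9 fell, and with upper-quartile scaling 37 rose and 7 fell. The medians with these 2 settings were 0.56 and 0.70 in the members and -0.18 and -0.24 over all genes. Of the 35 genes of the constitutive core, the cap and PA28, 33 rose. At least 2-fold rises were seen in 16, again without a share over all genes at that size. The exceptions were Psma1, at 0.01 ± 0.037, and Psmb1, at 0.00 ± 0.038. In TPM both were lower after stimulation. Psma1 was at 145 and 144 against 176 and 178, and Psmb1 at 118 and 119 against 146 and 146. Psmd13, called higher in scaled counts, was also lower in TPM, at 97.4 and 97.9 against 103 and 100. Psme3 rose by 2.68 ± 0.041, Psmd12 by 1.83 ± 0.039, Psmg1 by 1.70 ± 0.055, Psme2 by 1.70 ± 0.047 and Psme1 by 1.14 ± 0.044.

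All 3 immunoproteasome genes fell with stimulation under the Foxp3 guide. Psmb8 fell by 0.78 (SE 0.041, adjusted p = 5.33e-15), Psmb10 by 0.58 (SE 0.054) and Psmb9 by 0.54 (SE 0.042). They were the 3 members called lower. Psmb7 rose by 1.27 ± 0.039, Psmb5 by 0.75 ± 0.049 and Psmb6 by 0.74 ± 0.047.

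**Figure D3:**
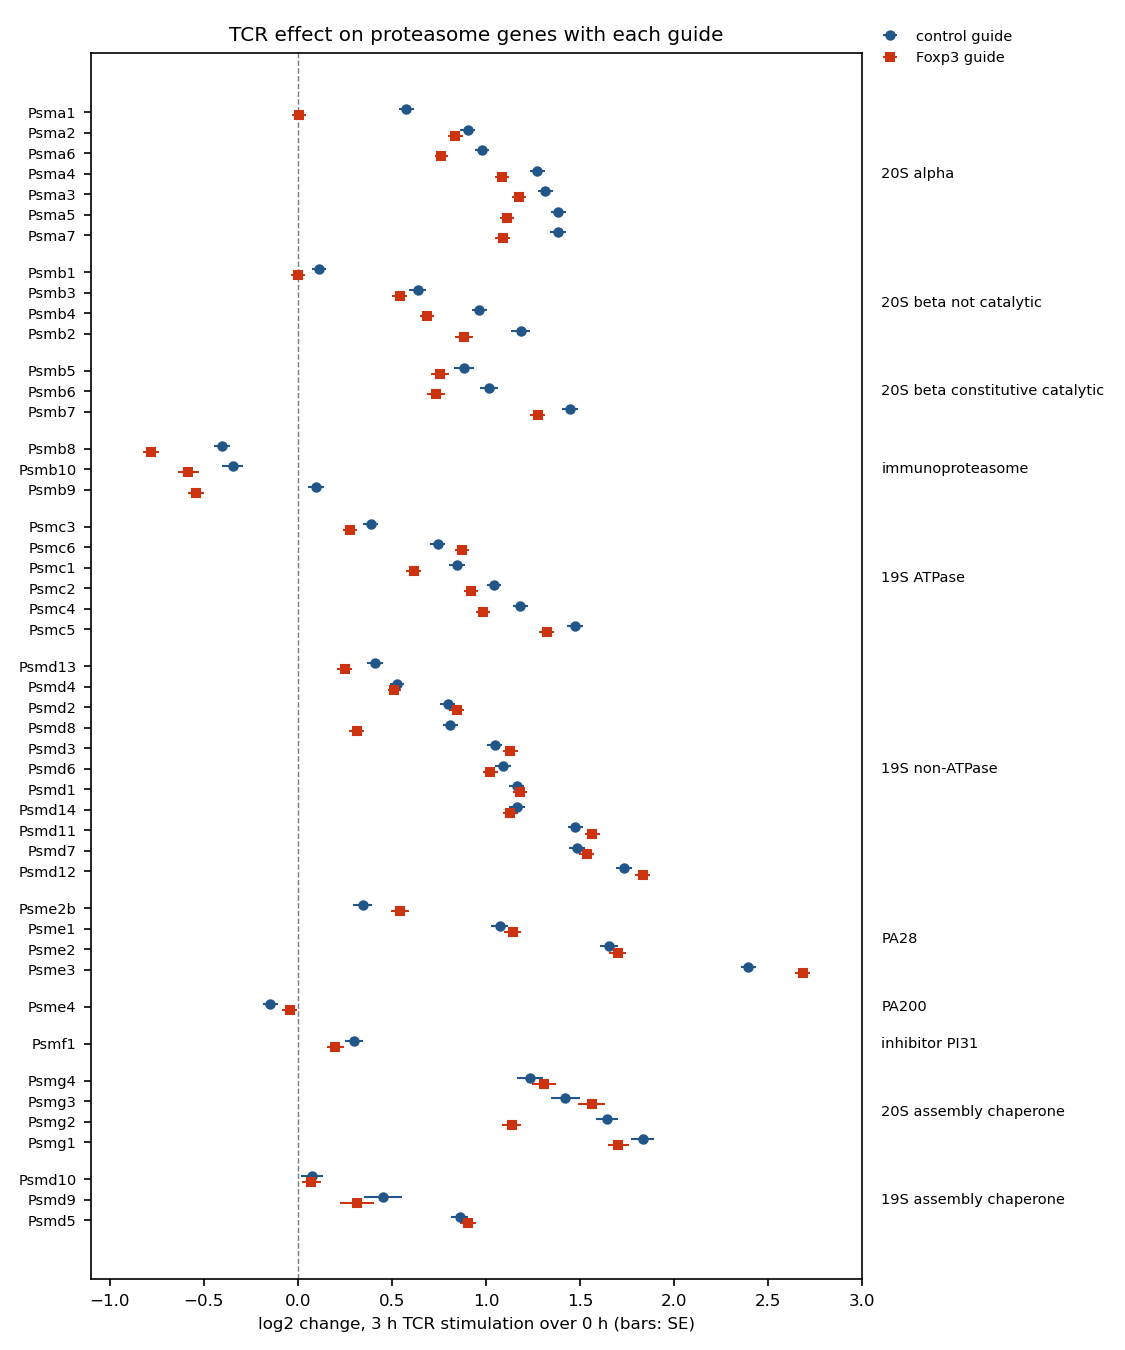
Log2 change at 3 h of TCR stimulation over 0 h (horizontal axis, TMM-scaled counts) for the 47 tested proteasome genes, by class, with circles for the control guide, squares for the Foxp3 guide and bars for the SE. Psme3 lies farthest right (2.39 and 2.68), Psmb8 and Psmb10 lie left of 0 with both guides, and Psmb9 is at 0.10 and -0.54.

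The stimulation responses of the guides were then compared directly, as an interaction in the same fit. Of the 48 genes, 2 had a higher and 19 a lower response with the Foxp3 guide, and 27 were not called. Over all genes tested 44.8% were called, 17.8% as higher and 27.0% as lower, so the members' total of 21 was near the background. The median difference was -0.12 in the members and -0.09 over all genes. With median-ratio (RLE) scaling the counts were 7 higher and 12 lower, and with DESeq2 3 higher and 12 lower. With either, the median difference was -0.05 in the members and -0.03 over all genes.

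Psmb9 differed most, at -0.64 ± 0.060 (adjusted p = 5.28e-09). Psmb8 differed by -0.38 ± 0.058 and Psmb10 by -0.24 ± 0.078, and both were called. The values of Psmb9 and Psmb8 kept their call in all alternatives run, but the call of Psmb10 was lost with RLE or upper-quartile scaling, with DESeq2 (adjusted p = 0.0758 to 0.142) and on every TPM scale (0.164 to 0.582). It was also lost on leaving out replicate 2 of the control guide at 0 h or 3 h, or replicate 1 of the Foxp3 guide at 0 h or 3 h (adjusted p = 0.0554 to 0.106). Among core genes Psma1 differed by -0.57 ± 0.054, Psmb2 by -0.30 ± 0.069, Psma7 by -0.30 ± 0.058, Psmb6 by -0.28 ± 0.068, Psmb4 by -0.28 ± 0.055 and Psma5 by -0.27 ± 0.054. Psmb6 lost its call when TPM was used with a pseudocount of 1 or 0.1 (adjusted p = 0.0572 and 0.0583) or unfiltered (0.118), and Psmb2, Psma7 and Psmb4 lost theirs in the unfiltered TPM fit (0.106, 0.0771 and 0.0664). Psmg2, a chaperone of the alpha ring, differed by -0.51 ± 0.077, and Psmd8, a lid subunit, by -0.50 ± 0.056.

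The 2 genes with a higher response were both of PA28: Psme3 by 0.29 ± 0.056 and the uncertain Psme2b by 0.20 ± 0.070. Psme2b lost its call on log2(TPM + 1) with TMM factors (adjusted p = 0.0525). It was also not called without replicate 2 of the control guide at 0 h or 3 h, or without replicate 2 of the Foxp3 guide at 0 h. Psme2b then differed by 0.15 to 0.18. Psme1 and Psme2 differed by 0.07 ± 0.062 and 0.05 ± 0.065 and were not called. Psmb5 differed by -0.13 ± 0.072. It was not called except without the gene filter (adjusted p = 0.0444) or without replicate 1 of the control guide at 3 h, where it differed by -0.20. Psmb7 differed by -0.17 ± 0.057 and was called. That call was lost with RLE or upper-quartile scaling (adjusted p = 0.125 and 0.118), with DESeq2 (0.206) and on every TPM scale (0.0586 to 0.262). It was also lost without replicate 1 of the control guide at 0 h, replicate 2 of the Foxp3 guide at 0 h, or either replicate of the Foxp3 guide at 3 h. Psmb7 then differed by -0.14 to -0.16.

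Between guides at 0 h, scaled counts of most proteasome genes were higher with the Foxp3 guide, while Psmb8, Psmb10, Psme1 and Psme2b were lower. The counts were 37 higher, 4 lower and 7 not called of 48, against 63.3% called over all genes, 34.2% higher and 29.1% lower. The median log2 change was 0.25 in the members and 0.02 over all genes. These directions depend on the scale: on log2(TPM + 1), 14 members were higher and 15 lower, and 18 of the 48 changed sign. The median on that scale was -0.01 in the members and -0.15 over all genes. The guide comparisons share their libraries with the stimulation comparisons, so they are not independent of them.

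Psma1 differed most among the well-expressed members at 0 h, by 0.80 ± 0.039. It stood at 123 and 124 TPM with the control guide and at 176 and 178 with the Foxp3 guide, so its groups did not overlap on the TPM scale either. Psma5 was higher by 0.62 ± 0.040, Psmg2 by 0.60 ± 0.059 and Psmb2 by 0.56 ± 0.050. Psmc3ip, the recombination factor, was higher by 1.52 ± 0.110 at a low level, with 4.21 and 4.83 TPM against 10.8 and 10.9. Psmb7, Psmb6 and Psmb5 were higher by 0.48 ± 0.042, 0.32 ± 0.050 and 0.22 ± 0.052, though on log2(TPM + 1) Psmb6 was at 0.03 and not called (adjusted p = 0.603) and Psmb5 turned to -0.06.

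The lower genes at 0 h were Psme1, by 0.26 (SE 0.044), Psme2b, by 0.22 (SE 0.050), Psmb10, by 0.20 (SE 0.053), and Psmb8, by 0.18 (SE 0.041). The call of Psmb10 was lost without replicate 2 of the Foxp3 guide at 0 h (adjusted p = 0.107). Psmb9 had a log2 change of 0.00 ± 0.042 and Psme2 of -0.07 ± 0.047, and neither was called. On log2(TPM + 1) both were called lower, at -0.24 and -0.46, and Psme2 was also called lower with RLE scaling and with DESeq2. Psme3 was higher by 0.10 ± 0.041 (adjusted p = 0.0384). That call was lost with RLE (0.391) or upper-quartile scaling (0.735), with DESeq2 (0.417) and on log2(TPM + 1) with TMM factors (0.124). It was also lost with at least 1 CPM in all libraries (0.0709), with only the 4 libraries compared (0.0752) and with the replicate block (0.0523). Without replicate 1 of the control guide at 0 h or replicate 2 of the Foxp3 guide at 0 h or 3 h it was lost too, with log2 changes of 0.08 to 0.09. On log2(TPM + 1) the value turned to -0.18.

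At 3 h all 3 immunoproteasome genes were lower with the Foxp3 guide. Psmb9 had a log2 change of -0.63 ± 0.043 (adjusted p = 4.94e-12), with 80.2 and 82.9 TPM against 139 and 145. Psmb8 had a log2 change of -0.56 ± 0.042 and Psmb10 of -0.43 ± 0.056. Psme1 was the other member called lower, at -0.19 ± 0.043. In all, 32 of the 48 members were higher, 4 lower and 12 not called, against 61.5% called over all genes, 30.7% higher and 30.8% lower. The median was 0.16 in the members and -0.01 over all genes.

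The higher calls at 3 h again depended on the scale, with 8 members higher and 14 lower on log2(TPM + 1), where 21 of the 48 changed sign. The median on that scale was -0.03 in the members and -0.12 over all genes. Psmc3ip, again at a low level, was higher by 1.22 ± 0.109. Among the well-expressed members the largest differences were small. Psmd1, a scaffold of the cap, was higher by 0.40 ± 0.037, Psmd14, its deubiquitinase, by 0.40 ± 0.038, Psme3 by 0.39 ± 0.039 and the ATPase gene Psmc6 by 0.38 ± 0.039. Psmb7 was higher by 0.31 ± 0.039, while Psmb5 at 0.10 ± 0.049, Psmb6 at 0.04 ± 0.047 and Psme2 at -0.02 ± 0.045 were not called. On log2(TPM + 1) Psmb6 and Psme2 were called lower, at -0.16 and -0.25. Without replicate 2 of the control guide at 3 h or replicate 1 of the Foxp3 guide at 3 h, Psmb5 was called higher (adjusted p = 0.00956 and 0.0217). The 3 immunoproteasome genes had negative values on both scales at 3 h.

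**Figure D4:**
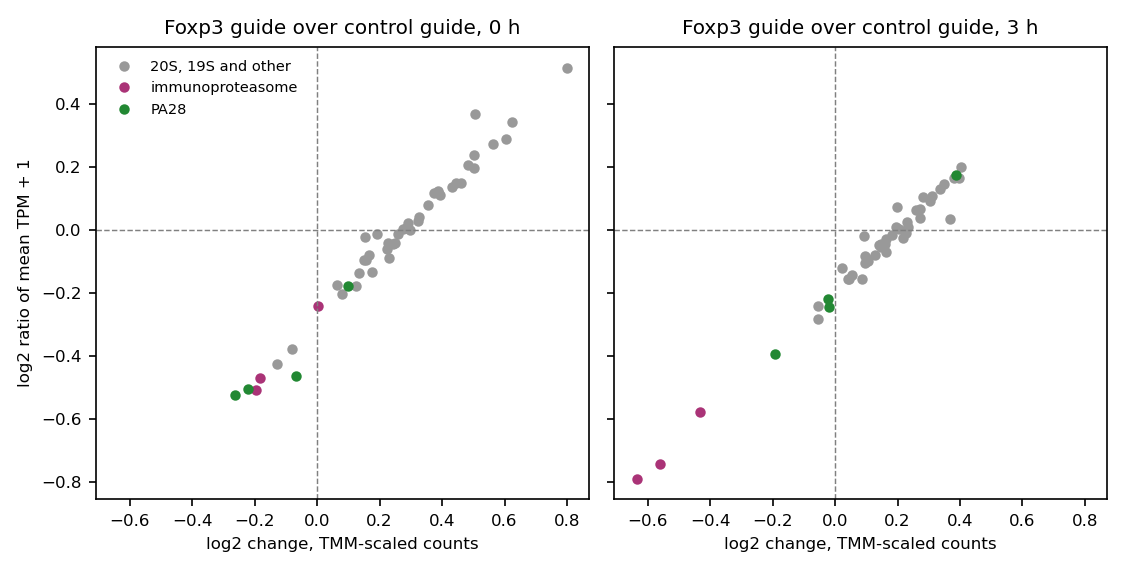
Difference between the Foxp3 guide and the control guide at 0 h (left) and 3 h (right) for the 47 tested proteasome genes, with the log2 change of TMM-scaled counts on the horizontal axis and the log2 ratio of mean TPM + 1 on the vertical axis. Most points lie right of 0 and around 0 vertically, and the immunoproteasome genes lie at the lower left at 3 h, where their log2 changes are -0.43 to -0.63.

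The summed level of the 38 subunit genes followed stimulation. In control-guide cells it went from 5930 ± 55.1 (mean TPM ± SD over 2 libraries) to 8850 ± 46.8, and from 5600 ± 60.1 to 8234 ± 71.4 in Foxp3-guide cells. The log2 difference with stimulation was 0.58 and 0.56 in TPM. Among the subunit and chaperone classes summed, the immunoproteasome class was the one whose TPM fell with stimulation, from 903 ± 6.12 to 564 ± 6.43 TPM with the control guide and from 670 ± 12.9 to 339 ± 7.42 with the Foxp3 guide. PA28 went from 1096 ± 11.1 to 2225 ± 18.1 TPM and from 792 ± 34.6 to 1918 ± 64.0. Between guides the summed level of the 38 genes differed by -0.08 at 0 h and -0.10 at 3 h in TPM, but by 0.21 and 0.14 in summed CPM (counts scaled to library size), so its direction depended on the scale.

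Regulators of subunit genes moved in different directions. Of 10 listed regulators, 7 rose and 3 fell with stimulation under the control guide, and 6 rose and 4 fell under the Foxp3 guide, against 81.8% and 85.4% of all genes called in either direction. Irf1, an interferon-response factor known to activate immunoproteasome genes, went from 112 and 111 TPM to 363 and 354 in control-guide cells, and from 65.4 and 65.9 to 90.8 and 89.5 in Foxp3-guide cells. The Foxp3-guide libraries were lower at both times, and its stimulation response differed by -1.29 ± 0.053. With the control guide Irf1 rose with stimulation while Psmb8 and Psmb10 fell, and each of these genes was lower with the Foxp3 guide at both times. The part of Irf1 in the immunoproteasome values was not tested.

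Nfe2l1, which encodes the NRF1 factor that induces subunit genes when proteasome capacity falls short, rose by 1.15 ± 0.040 under the control guide, by 1.72 ± 0.040 under the Foxp3 guide, and the responses differed by 0.58 ± 0.056. Its TPM was 49.9 and 48.5, then 76.9 and 73.5, against 28.1 and 25.1, then 71.4 and 73.1. Its partner gene Maff rose by 4.0 and 4.77 with the control and the Foxp3 guide, and Mafk by 2.48 with the Foxp3 guide. Other genes of the NRF1 and NRF2 pathway fell with both guides: Ddi2, the protease that cleaves NRF1, by 1.11 and 1.17, Ngly1, which removes its sugars, by 0.93 and 0.44, and Nfe2l2, which encodes NRF2, by 0.67 and 1.12. At 0 h, 2 regulators were higher and 8 lower with the Foxp3 guide, among them Maff at -1.21 and Nlrc5 at -0.86. At 3 h, 4 were higher and 5 lower, with Irf1 at -1.80, and over all genes 63.3% and 61.5% were called at those times.

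Proteasome partners outside the Psm names gave 10 higher and 3 lower of 13 with stimulation under the control guide, and 9 higher and 4 lower under the Foxp3 guide. Over all genes 40.9% and 40.8% were called higher. Pomp, the maturation factor of the core, rose by 1.35 and 0.97, and Adrm1, a ubiquitin receptor of the cap, by 1.34 with the Foxp3 guide. Usp14, a deubiquitinase bound to the cap, rose by 1.36 under the control guide, by 0.35 under the Foxp3 guide, and the responses differed by -1.01. Zfand2b fell by 1.34 with the Foxp3 guide. Uchl5, another deubiquitinase of the cap, was higher with the Foxp3 guide by 0.77 at 0 h and 0.77 at 3 h, and Zfand2a by 0.88 at 0 h. Over the list, 9 genes were higher and 1 lower at 0 h, and 6 higher and 4 lower at 3 h, against 34.2% and 30.7% of all genes called higher.

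Of 15 genes for ubiquitin, its activating enzymes and shuttle factors, 14 were tested. With the control guide 9 rose and 4 fell, and with the Foxp3 guide 9 rose and 3 fell, so the totals called were near the 81.8% and 85.4% over all genes. The activating enzyme gene Uba6 rose by 1.69 and 1.80, and the shuttle gene Ubqln4 by 1.28 and 1.73. Between guides the list gave 6 higher and 5 lower at 0 h, with Rps27a at 0.55, and 6 higher and 3 lower at 3 h, with Nploc4 at 0.37, against 63.3% and 61.5% of all genes called.

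Genes of class I antigen processing, the pathway that uses immunoproteasome products, were mostly lower with the Foxp3 guide. Of 11, 2 were higher and 7 lower at 0 h, and 3 higher and 8 lower at 3 h, where 29.1% and 30.8% of all genes were called lower. The list's median log2 change was -0.12 at 0 h and -0.50 at 3 h. Tap1, whose promoter window overlaps that of Psmb9, stood at 213 and 222, then 308 and 308 TPM with the control guide, and at 182 and 173, then 177 and 172 with the Foxp3 guide. Its log2 change with stimulation was 0.81 ± 0.041 and 0.25 ± 0.040, with a difference of -0.57 ± 0.057 beside -0.64 for Psmb9; the value of 0.25 turned to -0.02 on log2(TPM + 1). Tap2 fell by 0.48 and 0.93 with stimulation and had log2 changes between guides of -0.49 at 0 h and -0.93 at 3 h. Tapbpl had log2 changes of -0.78 and -1.62 between guides, and H2-K1 of -0.52 at 0 h. With stimulation 6 genes rose and 3 fell under the control guide. Over all genes 81.8% were called, 40.9% higher and 40.9% lower. The peptide-trimming enzyme gene Erap1 was at 1.68 and Tapbpl at 1.41. Under the Foxp3 guide 6 rose and 5 fell, against 40.8% higher and 44.5% lower over all genes, with the chaperone gene Calr at 1.68 and Erap1 at 1.60.

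Cell cycle genes were higher with the Foxp3 guide, as scaled counts of most proteasome genes were. All 8 were higher with the Foxp3 guide at 0 h and at 3 h, where 34.2% and 30.7% of all genes were, with medians of 2.11 and 2.35, Ccnb1 at 2.55 and 2.87 and Ccna2 at 2.53 and 2.66. With stimulation 6 of the 8 fell and 1 rose under the control guide, and all 8 fell under the Foxp3 guide (40.9% and 44.5% of all genes fell), with Ccna2 at -2.36 and -2.23 and Mki67 at -2.41 and -2.06. In TPM the list's median log2 ratio between guides was 1.84 at 0 h and 2.05 at 3 h, against -0.01 and -0.03 in the members. The part of cell cycle genes in the guide differences of the proteasome genes was not tested.

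Over the 8 libraries, the genes whose log2 CPM followed Psmb8 most closely were 1810073O08Rik (Pearson r = 0.997), Enpp1 (0.997), Adcy6 (0.996), Plin2 (0.996) and Pgap3 (0.996). Psmb10 stood at rank 29 with r = 0.992 and Psmb9 at rank 3097 with r = 0.849. The tested B cell genes Cd79a, Ighm and Cd79b had 0.968, 0.951 and 0.666, at ranks 478, 844 and 5356, so many other genes followed Psmb8 more closely. Tap2, Irf1, Tap1 and Nfe2l1, followed in every comparison, had 0.973 (rank 365), -0.202, -0.267 and -0.777. These values describe 4 groups of 2 libraries that share their group means.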

How the data were processed

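The authors deposited expected count and TPM values per gene for 8 stranded RNA-seq libraries. Per the submitters' processing notes, Trim Galore 0.6.3, STAR 2.7.9a and RSEM 1.3.1 were used with mm10 (GRCm38); the annotation release is not given in the sources used here. Of 55665 gene identifiers, 55180 matched GENCODE M21. In expected counts, the unstimulated libraries held 38729009 and 42698042 (control guide) and 66804803 and 64135431 (Foxp3 guide). After stimulation they were 48626432 and 45518491, and 55865290 and 94807362.

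Expected counts were rounded, filtered with filterByExpr, scaled by TMM and fitted with edgeR 4.0.16 (quasi-likelihood, robust, 1 mean per group, 4 residual degrees of freedom, R 4.3.3). P-values were adjusted by Benjamini-Hochberg over 16642 genes. The common biological coefficient of variation was 3.41%. CPM uses TMM-scaled library sizes. TPM levels are the authors' values, and TPM ratios, shares and sums were computed from them. Alternatives were DESeq2 1.42.0, upper-quartile and RLE scaling, limma 3.58.1 on log2(TPM + 1) with and without TMM factors and the gene filter and on log2(TPM + 0.1), other filters, the 4 compared libraries only, the replicate block, and each library left out. Replicates differed by more than sampling noise (chi-square per gene 4.25 to 6.81).

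The members and gene lists were chosen with earlier results of these data known. Named genes were Foxp3, Psmb5, Psmb6, Psmb7, Psmb8, Psmb9, Psmb10, Psme1, Psme2 and Psme3 throughout, the 4 largest called rises and falls per comparison where log2 CPM averaged at least 3 over the libraries, the 12 largest called differences between the stimulation responses, the untested members, and the 2 largest called changes per list. Tap1, Tap2, Irf1 and Nfe2l1 were followed in every comparison, and the other members, Ddi2, Ngly1, Nfe2l2, the B cell genes and library values were picked after their values were seen. Some genes that these lists and rules cover are not reported here.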

Additional observations from a re-analysis of the deposited data

Results flagged for a closer look

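The direct test of the difference between the stimulation responses of the 2 guides (edgeR's interaction, adjusted over all genes tested) called 21 of the 48 tested proteasome genes, near the 44.8% called over all genes. A negative log2 value means a lower response with the Foxp3 guide. The immunoproteasome genes Psmb9, Psmb8 and Psmb10 had -0.64, -0.38 and -0.24. The alpha ring genes Psma1, Psma7, Psma5, Psma6, Psma4 and Psma3 had -0.57, -0.30, -0.27, -0.22, -0.19 and -0.14. The other beta genes Psmb2, Psmb6, Psmb4 and Psmb7 had -0.30, -0.28, -0.28 and -0.17. The cap genes Psmd8, Psmc1, Psmc4, Psmd13 and Psmc5 had -0.50, -0.23, -0.20, -0.16 and -0.15, and the chaperone gene Psmg2 had -0.51. The PA28 genes Psme3 and Psme2b had 0.29 and 0.20.

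Among the listed pathway genes, the same test gave negative values for Irf1 (-1.29), Usp14 (-1.01), Tapbpl (-0.84), Zfand2a (-0.78), Pcna (-0.72), Tap1 (-0.57) and Tap2 (-0.45). It gave positive values for Mki67 (0.35), Vcp (0.43), Ubqln4 (0.45), Nfe2l1 (0.58) and Calr (0.59). Groups of 2 libraries allow no test for an outlying library.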

How the results depend on the processing

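Scaling was the choice that moved most. The counts of members below stand without the share of all genes called under the same setting, which was not computed. Upper-quartile scaling shifted the median of all genes to -0.25 with stimulation under the control guide. Members called lower became 7 at 0 h between guides with RLE or upper-quartile scaling, 6 and 7 with stimulation under the control and Foxp3 guides with upper-quartile scaling, and 6 under the Foxp3 guide with at least 1 CPM in all libraries. On log2(TPM + 1) and log2(TPM + 0.1) the members called higher and lower were 14 and 15 at 0 h and 8 and 14 at 3 h between guides (13 and 13, and 6 and 12, without the gene filter), and those called lower with stimulation were 7 and 9, also without the filter. For the difference between responses, 7 were higher and 12 lower with RLE or upper-quartile scaling, 12 lower with DESeq2, 11 lower on the TPM scales (6 without the filter) and 1 higher with TMM factors on TPM; leaving out a library gave 1 to 3 higher and 14 to 25 lower. In CPM the mean log2 ratio differed by -0.69 at 3 h between guides and by -1.56 with stimulation under the Foxp3 guide. The summed level differed in CPM and in TMM-scaled TPM by 0.21 and 0.18 (guides, 0 h), 0.14 and 0.083 (guides, 3 h), 0.96 and 0.91 (control guide) and 0.88 and 0.82 (Foxp3 guide). Directions turned on the TPM scales for Psmb5 (-0.063) and Psme3 (-0.18) at 0 h, Nfe2l1 (-0.056 to -0.057) at 3 h, Psmb9 with the control guide (-0.26, and -0.14 with upper-quartile scaling) and Tap1 with the Foxp3 guide (-0.024). Class sums in CPM and TMM-scaled TPM turned for 20S alpha (0.16 and 0.15), constitutive catalytic (0.16 and 0.13), 19S non-ATPase (0.20 and 0.16) and core chaperones (0.11 and 0.08) at 3 h, for PA28 at 3 h in CPM (0.10), and for 19S non-ATPase (0.24 and 0.25) and core chaperones (0.28 and 0.15) at 0 h. Leaving out a library gave -0.044 to 0.020 for 19S non-ATPase at 0 h and -0.018 to 0.036 for the beta genes that are not catalytic at 3 h. For named genes, leaving out a library kept direction and call in 1094 values, lost the call in 23 and gained it in 3. The causes were not tested.

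No shared effect of the replicate number was visible: deviations of same-numbered libraries correlated at -0.076 to 0.0095. These values do not show whether same-numbered libraries came from the same mice or cultures. With the replicate block, 36 members were higher at 0 h between guides in place of 37, and the other counts of members were the same.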
